A study of Mus musculus with 8 samples.

Results

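Glutathione transferases and glutathione peroxidases were taken from the kidney expression table by gene name, as every gene called Gsta, Gstm, Gstp, Gstt, Gsto, Gstk or Gstz with a number, every gene called Mgst1 to Mgst3 and every gene called Gpx1 to Gpx8. The rule gave 33 of the 55401 genes listed, and it used no measured value. They comprised 22 soluble transferases (7 Gstm, 4 Gsta, 4 Gstt, 3 Gstp, 2 Gsto, Gstk1 and Gstz1), 3 microsomal transferases and 8 peroxidases. Of these 33 genes, 28 were expressed highly enough to be tested, with 4 or more of the 8 libraries at 0.5 FPKM or above, as were 15150 genes in all. FPKM, which counts the fragments of a gene per kilobase of transcript and relative to library size, corrects for transcript length, so levels of different genes can be set side by side.

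The kidneys came from diabetic mice, 1 library per mouse, and the comparison asked how recombinant fibroblast growth factor 4 (rFGF4), given as a drug, changes the diabetic kidney. The rFGF4 group holds mice 1, 2, 3 and 5, and the vehicle group, which received the phosphate-buffered carrier solution alone, holds mice 2, 3, 4 and 5. The labels name db/db mice, which become obese and diabetic because they lack a working leptin receptor, whereas the paper describes the sequenced mice as made diabetic with streptozotocin, a toxin of the insulin-producing cells. Nothing in the values settles which of these models was sequenced. The paper describes male mice, the labels give no age, dose or duration, and no library from a non-diabetic mouse was analysed here. Values below are given in the order rFGF4 mice 1, 2, 3 and 5, then vehicle mice 2, 3, 4 and 5.

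Glutathione is a small sulfur-containing peptide kept at high concentration in most cells. Glutathione transferases attach it to reactive or foreign compounds, which are then exported and broken down to mercapturic acids in the proximal tubule and excreted in urine. Glutathione peroxidases spend it to reduce hydrogen peroxide and lipid peroxides, and the resulting glutathione disulfide is recycled by glutathione reductase with NADPH. Several of these peroxidases carry selenocysteine in the active site, encoded by a UGA codon that is read as an amino acid and not as a stop. The kidney matters in particular for Gpx3, the secreted peroxidase of blood plasma, most of which is made by proximal tubule cells.

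The codon at the active site separates the peroxidases into those with selenocysteine and those with cysteine. The coding stretches around it are shown because this codon is what ties Gpx1 to Gpx4 to the selenium supply. Selenium itself was not measured, and only transcripts of genes for its transport and for selenoprotein synthesis are given further on. The stretches were read from the GENCODE M21 transcripts (mouse build GRCm38) and run 5′ to 3′ on the coding strand, with the active-site codon in capitals. The annotation marks TGA as selenocysteine in Gpx1 to Gpx4, and Gpx5 to Gpx8 hold TGC or TGT for cysteine. Each stretch lies within a coding exon, the first in Gpx1 and Gpx2, the second in Gpx3 and Gpx5 to Gpx8 and the third in Gpx4.
Gpx1: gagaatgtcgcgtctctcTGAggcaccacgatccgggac
Gpx2: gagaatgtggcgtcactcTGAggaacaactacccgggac
Gpx3: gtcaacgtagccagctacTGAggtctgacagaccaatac
Gpx4: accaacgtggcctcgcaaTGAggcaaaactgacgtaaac
Gpx5: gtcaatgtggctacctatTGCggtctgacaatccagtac
Gpx6: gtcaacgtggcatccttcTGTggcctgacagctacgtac
Gpx7: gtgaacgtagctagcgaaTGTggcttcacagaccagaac
Gpx8: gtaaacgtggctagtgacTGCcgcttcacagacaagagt
The Gpx3 stretch lies on the plus strand at chr11:54907238-54907276, the Gpx1 stretch on the plus strand at chr9:108339433-108339471 and the Gpx4 stretch on the plus strand at chr10:80054719-80054757. Gpx6 (plus strand) and Gpx5 (minus strand) are neighbours on chromosome 13, with stretches at chr13:21313759-21313797 and chr13:21291318-21291356.

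Several transferases are near-copies of each other, which bears on how firmly a value can be given to a gene. Windows of coding exons are shown for the pairs Gstp1 and Gstp2 (exon 5, minus strand, chr19:4036694-4036783 and chr19:4040988-4041077) and Gsta1 and Gsta2 (exon 6, plus strand at chr9:78241531-78241620 and minus strand at chr9:78332125-78332214). Capitals mark the bases at which the members of a pair differ.
Gstp1: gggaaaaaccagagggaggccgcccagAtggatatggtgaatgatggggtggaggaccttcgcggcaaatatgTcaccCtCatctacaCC
Gstp2: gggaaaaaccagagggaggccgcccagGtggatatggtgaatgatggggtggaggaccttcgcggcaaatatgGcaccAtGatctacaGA
Gsta1: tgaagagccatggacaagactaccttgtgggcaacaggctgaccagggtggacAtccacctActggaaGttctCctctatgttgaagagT
Gsta2: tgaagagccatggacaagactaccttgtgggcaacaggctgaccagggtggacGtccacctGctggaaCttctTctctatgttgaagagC
Over the whole coding sequence, Gstp1 and Gstp2 were 98.1% identical, with 12 of 630 bases different and an identical run of 300 bases. Gsta1 and Gsta2 were 97.6% identical, with 16 of 669 aligned positions different. The next closest pair, Gstm2 and Gstm7, stood at 84.9%. Of all stretches of 100 bases in its transcript, Gsta1 shared 81.8% with another gene, Gstp2 63.5%, Gstp1 52.8%, Gpx4 48.4% (with the pseudogene Gpx4-ps2), Gsta2 35.0% and Gstt3 23.9%. A fragment from such a stretch can be counted for either copy, so values of these genes are uncertain. Gpx1, Gpx3, Gpx6, Gsta3, Gsta4, Gstk1, Gsto1, Gstt1, Gstt2, Mgst1 and Mgst3 shared none.

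Most transferase genes sit in family clusters of GRCm38. The 7 Gstm genes occupy 149 kb of chromosome 3 (107895821 to 108044894), Gsta1, Gsta2 and Gsta4 lie within 173 kb of chromosome 9 (78182774 to 78355788), and Gsta3 is alone on chromosome 1. The 4 Gstt genes span 63.3 kb of chromosome 10 (75774115 to 75837424). The 3 Gstp genes span 24.2 kb of chromosome 19 (4035407 to 4059569), and Gsto1 and Gsto2 are neighbours further along it (47854970 to 47886324). Exons of Gstm5 overlap 4933431E20Rik on the opposite strand and those of Gstz1 overlap Gm6566 and Pomt2 on the opposite strand, and exons of Gstt3 overlap Gm20441 on the same strand. Whether the counting used the strand is not given in the sources used here, so reads of the opposite-strand partners cannot be told apart, and those of Gstt3 and Gm20441 cannot be separated by strand. The antioxidant response element, the site bound by NRF2, was searched for as TGACNNNGC on both strands of the RefSeq promoter windows, 300 bases around each start site. A match was present for 4 of the 31 members with a window (12.9%), Gsta3, Gstm5, Gstm7 and Mgst1, and for 14.0% of all 27025 genes with a window.

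The libraries differed before any comparison was made. The FPKM of all genes summed to between 389407 and 552604, and the number of fragments behind a value is unknown because no counts were analysed here. Mitochondrial genes supplied 19.0%, 24.7%, 29.8% and 36.0% of that sum in the rFGF4-treated and 38.4%, 34.2%, 37.2% and 24.4% in the vehicle-treated mice, and their part in the results was not tested beyond the scaling without them. The 6 markers of macrophages (C1qa, C1qb, C1qc, Csf1r, Adgre1 and Lyz2), all tested and none at 0, summed to 1220 FPKM in rFGF4 mouse 1 and 1751 in vehicle mouse 5, and to between 45.5 and 448 in the other 6 mice. The 8 markers of the first segments of the proximal tubule, likewise all tested and none at 0, summed to 561 in rFGF4 mouse 1 and to between 1498 and 2755 elsewhere. The labels give the tissue as kidney, although their RNA protocol speaks of adipose tissue, and these tubule markers were present in every library. For Gpx3, Gpx6, Gstk1, Gsto1 and Mgst1, fold changes are also given without 1 or both of these mice.

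Gpx3 was far above all other members. Means over the 8 mice were at least 100 FPKM for 7 members (Gpx3, Gpx1, Gpx4, Gstm1, Gsta2, Gstm5 and Gstt1), 20 to 100 FPKM for 11, 1 to 20 FPKM for 9 and under 1 FPKM for 6. All 33 together supplied between 2.34% and 4.18% of the summed FPKM of a library, except 1.11% in rFGF4 mouse 1. Without Gpx3, the share was 0.392% to 0.628% in all 8.

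**Figure D1:**
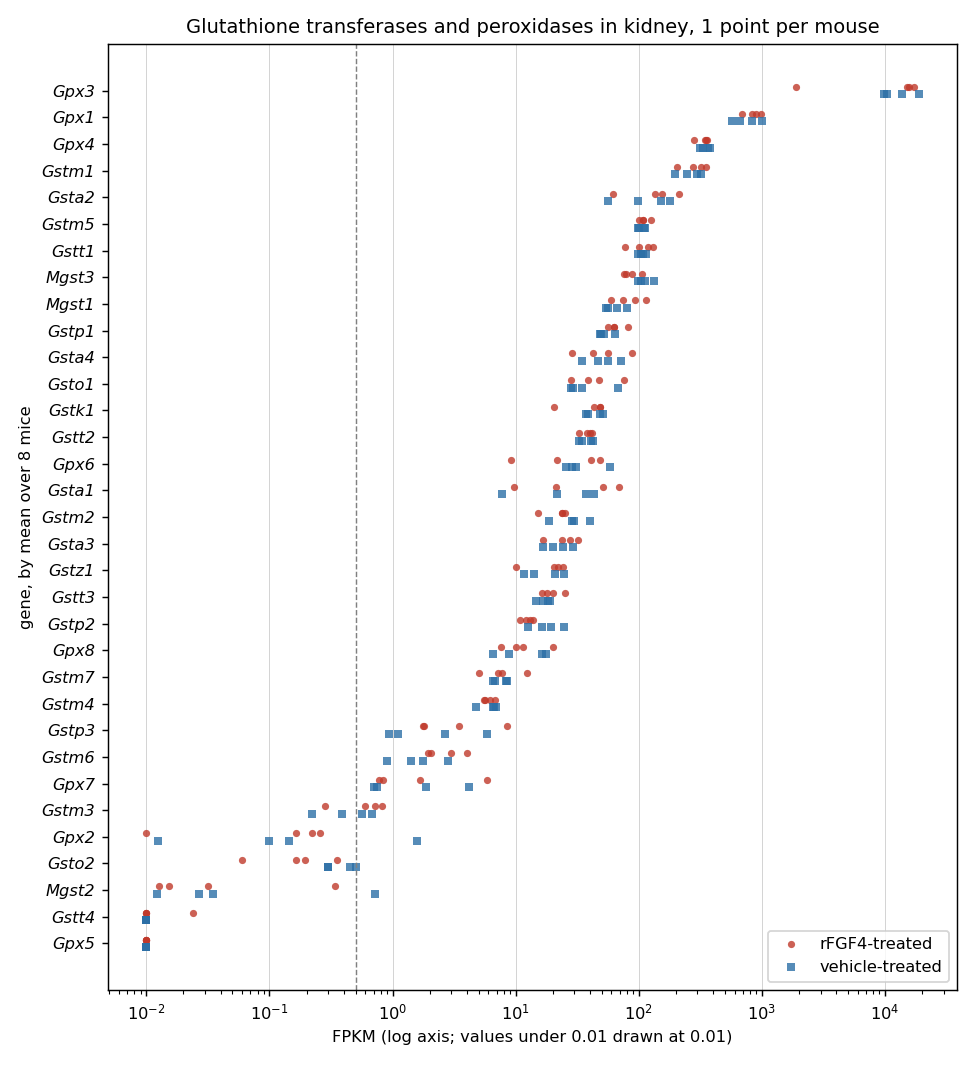
FPKM of each of the 33 genes (rows, ordered by mean) in each mouse, on a log axis, with red circles for the 4 rFGF4-treated and blue squares for the 4 vehicle-treated mice; the dashed line is the filter of 0.5 FPKM. Gpx3 lies at 9889 FPKM or above except in rFGF4 mouse 1 (1886 FPKM), and the groups overlap for every tested gene.

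Between rFGF4-treated and vehicle-treated kidneys, none of these genes passed the study's threshold, a 1.5-fold change at an unadjusted p under 0.05. The count in limma's test on log2(FPKM + 1) was 0 of the 28 tested members, against 231 of the 15150 tested genes (1.52%; 1.09% higher and 0.436% lower). An unadjusted p under 0.05 was reached by 2 members, Gstp2 and Mgst3, both lower with rFGF4, and by 4.62% of all tested genes. After Benjamini-Hochberg adjustment in limma no member and no other gene stayed under 0.05, the smallest adjusted p of all being 0.918. The mice of the groups were completely apart for 0 of the 28 members and for 504 genes overall (3.33%). The lowest exact permutation p of a member was 0.0857, where 4 mice against 4 can give 0.0286 at the least.

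Log2 fold changes of the members ran from -0.48 to 0.47, with a median of 0.07, beside 0.09 for all tested genes. They were positive for 18 and negative for 10 members, and positive for 67.1% of all tested genes. This balance turned with the scaling of the libraries. With a common median ratio, the median of all genes was -0.01, that of the members -0.05, and 12 members were positive. With equal sums of nuclear FPKM, the medians were 0.16 and 0.16, and 22 members were positive. On the scale log2(FPKM + 1), the 95% interval of 8 members (Gpx4, Gstm3, Gstm4, Gstm5, Gstm7, Gstt1, Gstt2 and Gstt3) lay within 1.5-fold in either direction. That scale understates the change of Gstm3, which was at 0.223 to 0.816 FPKM. The intervals of the other 20 reached past 1.5-fold on at least 1 side, and the median width of the interval over the 28 members was 1.06 on the log2 scale.

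**Figure D2:**
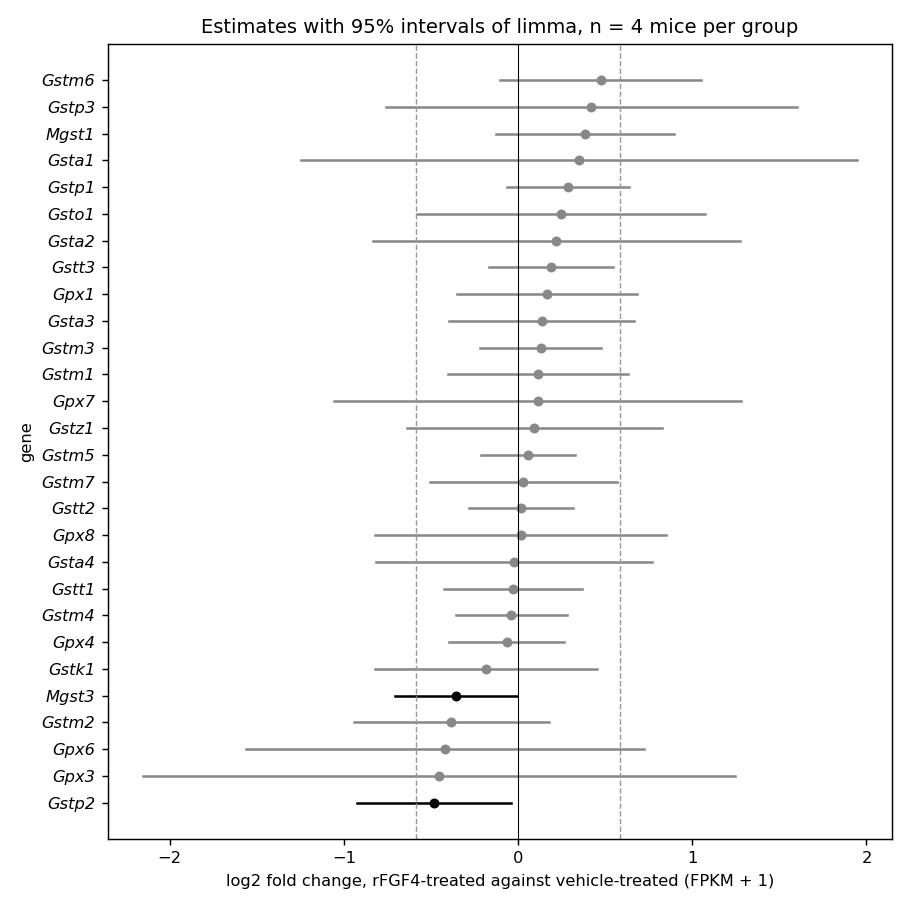
Log2 fold change of each of the 28 tested genes in rFGF4-treated against vehicle-treated mice on the scale log2(FPKM + 1), with 95% intervals of limma; dashed lines mark 1.5-fold and black marks an unadjusted p under 0.05. Gstp2 at -0.48 and Mgst3 at -0.35 are the only genes whose interval leaves out 0, and Gpx3 has the widest interval, from -2.15 to 1.24.

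Among the selenocysteine peroxidases, Gpx3 stood out for its level and for 1 mouse. Its FPKM was 1886, 14995, 17110 and 15652 in rFGF4 mice 1, 2, 3 and 5, and 10388, 18856, 13727 and 9889 in vehicle mice 2, 3, 4 and 5. rFGF4 mouse 1 was lowest by far, and the other mice of both groups overlapped. Gpx3 ranked between 1 and 6 among nuclear genes in 7 libraries and 10 in rFGF4 mouse 1, with 1.88% to 3.70% of the summed FPKM in those 7 and 0.484% in the last. Its log2 fold change was -0.45 (standard error 0.74, limma p = 0.557, exact permutation p = 0.857). It became 0.32 without rFGF4 mouse 1 and 0.19 without that mouse and vehicle mouse 5, so its sign hung on 1 library. The 8 markers of the first proximal tubule segments were also lowest in rFGF4 mouse 1, and so were those of the last proximal segment (40.2 FPKM in sum beside 85.6 to 228), the distal convoluted tubule (56.1 beside 173 to 337) and the collecting duct (202 beside 228 to 366). Markers of the thick ascending limb were not lowest there (992 beside 898 to 1422). Podocyte markers were highest in that mouse (105 beside 48.0 to 91.6), and endothelial markers lay within the range of the others (30.4 beside 23.6 to 44.2). In whole tissue, fewer cells of a type and less RNA per cell cannot be told apart, and the part of cell content in the Gpx3 value was not tested.

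Gpx1, the peroxidase of cytosol and mitochondria and a main antioxidant enzyme of red blood cells, followed at 837, 686, 897 and 979 FPKM against 831, 663, 1007 and 572. Neither group was consistently higher, and the log2 fold change was 0.17 (standard error 0.23, limma p = 0.479, exact permutation p = 0.429). Leaving out 1 mouse gave 0.04 (vehicle mouse 5) to 0.31 (vehicle mouse 4). The 5 red blood cell markers (Hba-a1, Hba-a2, Hbb-bs, Hbb-bt and Alas2), all tested and none at 0, summed to between 120 and 2657 FPKM in rFGF4-treated and between 1139 and 4325 in vehicle-treated mice, and their part in the Gpx1 values was not tested. Gpx4, which reduces peroxidised lipids within membranes and so guards against ferroptosis, was steadier, at 349, 362, 279 and 344 FPKM against 377, 330.0, 368 and 317. The groups overlapped, and its log2 fold change was -0.06 with a 95% interval from -0.39 to 0.26. The pseudogene Gpx4-ps2, which shares sequence with Gpx4, was found at 74.8 to 121 FPKM. How reads were divided between these copies was not tested. Gpx2, the peroxidase of gut epithelium, was at or under 0.257 FPKM in 7 mice and at 1.58 in vehicle mouse 5, and was not tested.

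The cysteine peroxidases were far less abundant than Gpx1, Gpx3 and Gpx4. Gpx6, a close relative of Gpx3 (68.9% identical coding sequence), had an FPKM of 9.08, 48.2, 21.6 and 40.6 against 58.0, 28.6, 31.0 and 25.6. It was lowest in the same mouse as Gpx3, and the groups overlapped (log2 fold change -0.42, standard error 0.50). The value was 0.04 without rFGF4 mouse 1 and -0.09 without that mouse and vehicle mouse 5. Other single mice also moved it, to -0.17 without vehicle mouse 2, -0.72 without rFGF4 mouse 2 and -0.64 without rFGF4 mouse 5. Gpx7 and Gpx8, which reside in the endoplasmic reticulum and use peroxide in protein folding, ranged from 0.704 to 5.86 and from 6.60 to 20.1 FPKM. Both were high in rFGF4 mouse 1 and vehicle mouse 5, and neither passed the test (log2 fold changes 0.11 and 0.01). Gpx5, the peroxidase of the epididymis, was at the value that stands for 0 in all 8 libraries.

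In the alpha class, Gsta1, Gsta2 and Gsta4 varied more from mouse to mouse than Gsta3 (coefficients of variation 65.6%, 42.3%, 36.4% and 23.6%). Gsta1 and Gsta2 conjugate electrophiles and reduce lipid peroxides, and they were high and low in much the same mice. Gsta2 was at 155, 212, 62.0 and 136 FPKM against 151, 55.8, 98.2 and 181. Gsta1 was at 51.4, 69.3, 9.69 and 21.3 FPKM against 37.3, 7.70, 21.8 and 43.0, which was 13.8% to 33.2% of Gsta2. For both, rFGF4 mouse 2 was highest and vehicle mouse 3 lowest, and each group held both high and low mice. The range of Gsta1 from 7.70 to 69.3 FPKM went with a log2 fold change of 0.35 and a 95% interval from -1.25 to 1.94. The 95% interval of Gsta2 ran from -0.83 to 1.27. Both fold changes were below 0 without rFGF4 mouse 2 (-0.05 for Gsta1 and -0.02 for Gsta2) or without vehicle mouse 3 (-0.14 and -0.11). They rose without rFGF4 mouse 3 (0.85 and 0.57) or without vehicle mouse 5 (0.64 and 0.45). Gm3776 and Gm10639, which share stretches of 100 bases with this pair, were found at 7.38 to 48.2 and 6.82 to 67.0 FPKM.

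Gsta4 detoxifies hydroxynonenal and other aldehydes of lipid peroxidation. It measured 56.4, 87.6, 28.8 and 42.6 FPKM against 56.0, 47.0, 34.7 and 71.1, with full overlap and a log2 fold change of -0.02 (standard error 0.35), which was -0.29 without rFGF4 mouse 2 and 0.23 without rFGF4 mouse 3. Gsta3, which lies on another chromosome, measured 16.7, 31.8, 23.8 and 27.5 FPKM against 29.0, 16.6, 24.1 and 20.3. Its log2 fold change was 0.14 (standard error 0.23), and like the other 3 alpha genes it was highest in rFGF4 mouse 2. The value was 0.01 without that mouse or without vehicle mouse 3, and 0.31 without rFGF4 mouse 1.

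The mu class was led by Gstm1, a conjugating enzyme of broad substrate range, at 275, 319.8, 205 and 352 FPKM against 320.1, 298, 247 and 195. The groups overlapped, with a log2 fold change of 0.11 (standard error 0.23) that ran from -0.02 without vehicle mouse 5 to 0.27 without rFGF4 mouse 3. Gstm5 was the steadiest member, at 109, 99.9, 125 and 107 FPKM against 111, 99.4, 113 and 99.8. Its coefficient of variation over the 8 mice was 8.10%, and the log2 fold change of 0.06 had a 95% interval from -0.21 to 0.33. Gstm2 was lower on average with rFGF4, at 23.8, 25.2, 15.2 and 23.6 FPKM against 40.3, 28.8, 18.8 and 29.7. Vehicle mouse 4 lay among the rFGF4 values, and the log2 fold change of -0.38 (standard error 0.25) did not pass (limma p = 0.156, exact permutation p = 0.286). Without vehicle mouse 4 it was -0.57 and reached an unadjusted p under 0.05, whereas it was -0.22 without vehicle mouse 2 and likewise -0.22 without rFGF4 mouse 3. Gstm4 and Gstm7 lay between 4.79 and 12.4 FPKM, Gstm6 between 0.906 and 3.996 and Gstm3 between 0.223 and 0.816. Gstm6 had the highest log2 fold change of all members, 0.47 (limma p = 0.0952, exact permutation p = 0.143), and passed the threshold when vehicle mouse 5 was left out, the single member to do so in the higher direction in any of the alternatives.

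In the pi class the near-identical copies Gstp1 and Gstp2 had fold changes of opposite sign, a contrast that was not itself tested. Gstp2 was at 13.9, 13.0, 12.2 and 10.9 FPKM with rFGF4 and 12.7, 19.3, 16.5 and 24.7 with vehicle, means of 12.5 ± 1.27 and 18.3 ± 5.04 (SD, n = 4). Vehicle mouse 2 lay among the rFGF4 values, and the other 3 vehicle mice lay above them. The log2 fold change was -0.48 (standard error 0.19, 95% interval -0.92 to -0.04, limma p = 0.0352, exact permutation p = 0.0857). It was past an unadjusted 0.05 without rFGF4 mouse 1 (0.0378) or vehicle mouse 2 (0.00616), and in the latter case the log2 fold change of -0.64 passed the study's threshold. Without any other mouse it was not, with limma p from 0.0501 (vehicle mouse 4) to 0.0851 (rFGF4 mouse 5). The log2 fold change in those cases ran from -0.33 (vehicle mouse 5) to -0.52 (vehicle mouse 4). It also missed 0.05 with equal sums of nuclear FPKM (0.0679 in limma), with array weights (0.0579) and without rFGF4 mouse 1 and vehicle mouse 5 together (0.0597).

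Gstp1, an abundant and inducible enzyme that conjugates electrophiles, was at 62.6, 82.1, 63.3 and 55.8 FPKM against 63.9, 49.1, 52.6 and 48.9. Vehicle mouse 2 again lay among the rFGF4 values, and the other 3 vehicle mice lay below them. The log2 fold change was 0.29 (standard error 0.15, limma p = 0.0958, exact permutation p = 0.114), and it reached an unadjusted p under 0.05 without vehicle mouse 2 (0.37 on the log2 scale). It was 0.18 without rFGF4 mouse 2 and 0.16 with a common median ratio. Gstp2 stood at 15.8% to 22.2% of Gstp1 in rFGF4-treated and at 19.9% to 50.5% in vehicle-treated mice. The sum of the pair was 78.4 ± 11.9 FPKM with rFGF4 and 71.9 ± 3.87 with vehicle (SD, n = 4), a difference smaller than the SD of the rFGF4 group. How reads were divided between the copies was not tested. The pseudogene Gstp-ps, which shares sequence with both, was found at 22.1 to 40.9 FPKM. Gstp3, 71.7% identical to Gstp1, was between 0.938 and 8.52 FPKM and highest in rFGF4 mouse 1.

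**Figure D3:**
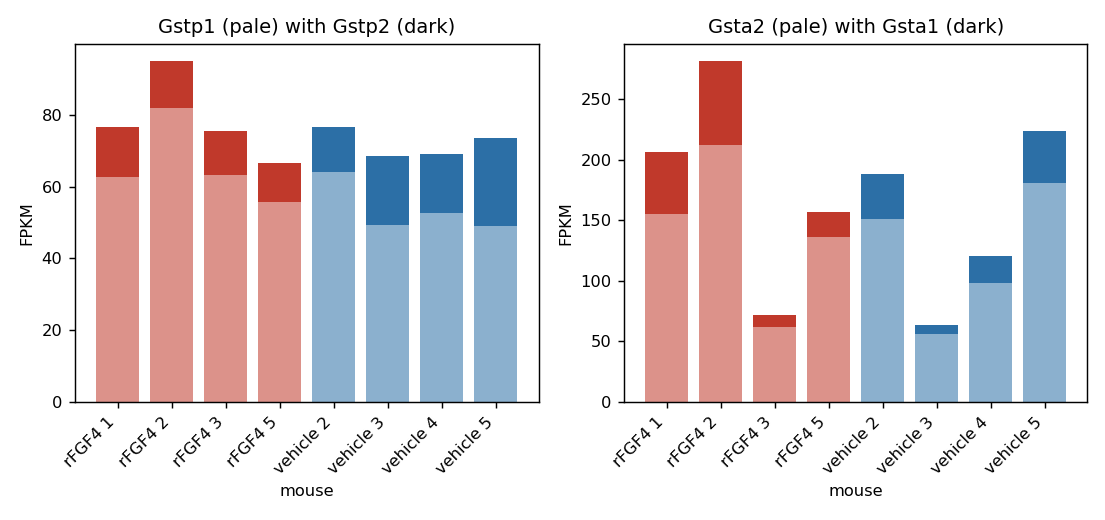
Stacked FPKM of Gstp1 with Gstp2 (left) and of Gsta2 with Gsta1 (right) in each mouse, red for rFGF4-treated and blue for vehicle-treated, with the less abundant copy in the darker shade. The Gstp totals lie between 66.7 and 95.04 FPKM in all 8 mice while the dark part is larger in 3 vehicle mice, and the Gsta totals run from 71.7 to 282 FPKM in rFGF4-treated and from 63.5 to 224 in vehicle-treated mice.

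The theta class was steady. Gstt1, which acts on small halogenated compounds, was at 77.0, 130.4, 118 and 100.2 FPKM against 104, 115, 98.5 and 108. The vehicle mice lay inside the range of the rFGF4 mice, and the log2 fold change was -0.03 (95% interval -0.42 to 0.37). Gstt2 was at 32.9, 41.6, 39.8 and 37.8 FPKM against 42.3, 32.6, 41.2 and 34.7, a log2 fold change of 0.01 (95% interval -0.28 to 0.31). Gstt3 ranged from 14.5 to 25.0 FPKM, and Gstt4 was at the value for 0 in 7 libraries and at 0.0238 FPKM in rFGF4 mouse 1.

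Gsto1 of the omega class, which reduces dehydroascorbate and removes glutathione from proteins, was at 75.7, 47.8, 28.1 and 38.9 FPKM against 28.1, 34.5, 29.5 and 68.2. It was highest in rFGF4 mouse 1 and vehicle mouse 5, 1 mouse of each group, and the log2 fold change was 0.25 (standard error 0.36). That value moved with these mice, being -0.00084 without the former, 0.53 without the latter and 0.28 without both. Other single mice moved it as well, to 0.46 without rFGF4 mouse 3, 0.12 without vehicle mouse 2 and 0.14 without vehicle mouse 4. Gstk1, a transferase of mitochondria and peroxisomes, was at 20.5, 48.6, 43.6 and 48.2 FPKM against 50.8, 38.4, 48.3 and 37.4. Here rFGF4 mouse 1 was lowest and the remaining mice overlapped. A log2 fold change of -0.18 (standard error 0.28) became 0.11 without that mouse and 0.04 without it and vehicle mouse 5. Gstz1, which isomerises maleylacetoacetate in tyrosine breakdown, ranged from 10.1 to 24.9 FPKM, and Gsto2 from 0.0593 to 0.508 FPKM.

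The microsomal transferases are membrane proteins unrelated in fold to the soluble ones. Mgst3 was at 87.5, 79.5, 75.8 and 107 FPKM with rFGF4 and 132, 113, 103 and 98.6 with vehicle, means of 87.4 ± 13.7 and 112 ± 14.8 (SD, n = 4). rFGF4 mouse 5 lay among the vehicle values, and the other 3 rFGF4 mice lay below them. The log2 fold change was -0.35 (standard error 0.15, 95% interval -0.70 to -0.01, limma p = 0.0468, exact permutation p = 0.0857). The limma p stayed under 0.05 without rFGF4 mouse 5 (0.0150) or vehicle mouse 5 (0.0424). It lay between 0.0622 (without vehicle mouse 4, at -0.39) and 0.130 (without vehicle mouse 2, at -0.27) when any of the other mice was left out. With a block for shared mouse numbers it was 0.163, at -0.39. It stayed under 0.05 with a common median ratio (0.0489, at -0.48) and with array weights (0.0126, at -0.44). With equal sums of nuclear FPKM its limma p was 0.14, and without rFGF4 mouse 1 and vehicle mouse 5 together 0.0507, at log2 fold changes of -0.26 and -0.42. The fold changes of Mgst3 and Gstp2 were negative in every alternative, and so were those of Gstm2. Those of Gsta3, Gstp1 and Mgst1 were positive in every alternative. All alternatives draw on the same mice.

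Mgst1, which works in the endoplasmic reticulum and the outer mitochondrial membrane as both transferase and peroxidase, pointed the other way. It was at 115, 93.0, 75.0 and 59.2 FPKM against 55.9, 80.7, 53.8 and 66.2, with rFGF4 mouse 1 highest. The log2 fold change of 0.38 (standard error 0.22) did not pass (limma p = 0.123, exact permutation p = 0.171). Without rFGF4 mouse 5 it was 0.54 and reached an unadjusted p under 0.05, whereas it was 0.23 without rFGF4 mouse 1 and 0.25 without that mouse and vehicle mouse 5. Mgst2, a relative of leukotriene synthase, was at or under 0.0346 FPKM in 6 mice, 0.339 in rFGF4 mouse 1 and 0.718 in vehicle mouse 5, and was not tested.

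The members varied between mice about as much as other genes did. The coefficient of variation over the 8 mice had a median of 28.8% for the 28 tested members and 27.1% for all tested genes. For members with a mean of at least 20 FPKM it was 23.7%, beside 22.1% for the 2170 genes at that level. Gstm5, Gpx4 (9.29%) and Gstt2 (10.5%) were the steadiest, and Gpx7 (92.2%), Gstp3 (81.3%) and Gsta1 (65.6%) the most variable. rFGF4 mouse 2 was the highest of the 8 mice for 8 tested members (28.6%, beside 7.32% of all tested genes) and vehicle mouse 3 the lowest for 8 (28.6%, beside 16.0%), Gsta1, Gsta2, Gsta3 and Gstt3 being in both sets.

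rFGF4 mouse 1 was the highest of the 8 mice for 6 of the 28 tested members (Mgst1, Gstm6, Gsto1, Gstp3, Gpx8 and Gpx7) and the lowest for 6 (Gpx6, Gstk1, Gstm7, Gstt1, Gstz1 and Gpx3). Over all tested genes, 48.1% were highest there and 10.9% lowest. Against the median of the 6 mice other than it and vehicle mouse 5, Gpx3 was 0.12 times as high in rFGF4 mouse 1 and 0.65 times in vehicle mouse 5. Gstk1 stood at 0.42 and 0.78 times, and both genes lay below all 6 mice in these 2. Gpx7 was 7.28 and 5.14 times as high, Gpx8 2.14 and 1.86 times and Gsto1 2.37 and 2.13 times, above all 6. The 5 fibroblast markers, all tested and none at 0, were also high in the same 2 mice, at 115 and 127 FPKM in sum beside 12.1 to 55.3 in the others. The 6 macrophage markers were given above, and the 6 B and plasma cell markers, of which 4 were tested, summed to 2716 and 22909 FPKM there and to 23.96 to 1449.9 elsewhere. The part of these cell types in the member values was not tested.

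**Figure D4:**
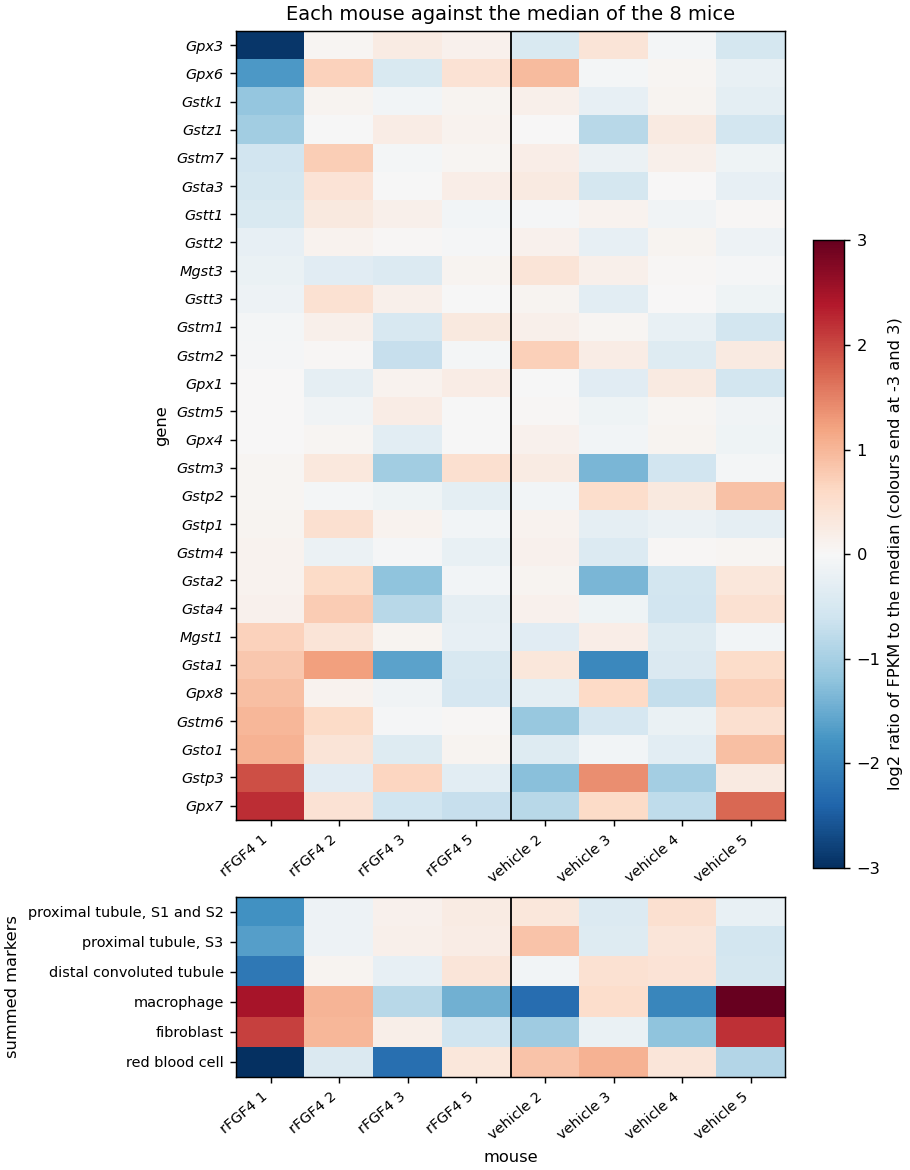
Log2 ratio of each mouse (columns, rFGF4-treated left of the line and vehicle-treated right of it) to the median of the 8 mice, for the 28 tested genes ordered by rFGF4 mouse 1 (top) and for summed markers (bottom). The marker rows cover proximal tubule, distal convoluted tubule, macrophage, fibroblast and red blood cell only. Red is above and blue below the median. Gpx3, Gpx6 and Gstk1 are low and Gpx7, Gstp3 and Gsto1 high in rFGF4 mouse 1, where proximal tubule markers are low (561 FPKM) and macrophage markers high (1220 FPKM).

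Genes that supply and use glutathione around these enzymes were taken from 4 lists of 64 genes, of which 56 were tested. An unadjusted limma p under 0.05 was reached by 3 in the higher direction (3.56% of all tested genes) and by 0 in the lower (1.06%), and none passed the study's threshold. Positive log2 fold changes were found for 16 of 27 tested genes of glutathione synthesis and recycling, 13 of 16 other glutathione-using proteins and proteins of transferase fold, 7 of 8 genes of selenoprotein synthesis and 4 of 5 exporters of conjugates, 40 in all. This count is to be read beside the 67.1% positive over all genes.

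Gclc, Gclm and Gss did not pass the test. Gclc, the catalytic subunit of the rate-limiting enzyme, was at 34.2, 72.6, 48.5 and 38.7 FPKM against 38.9, 37.2, 39.8 and 25.8, a log2 fold change of 0.40 (standard error 0.25, limma p = 0.141, exact permutation p = 0.257). It reached an unadjusted p under 0.05 with array weights (0.51), and it was 0.19 without rFGF4 mouse 2 and 0.26 without vehicle mouse 5. Its modifier subunit Gclm was at 19.0, 23.3, 20.5 and 8.48 FPKM against 20.97, 19.0, 22.0 and 6.80, low in mouse 5 of either group. Gss, which completes glutathione, was at 29.5, 35.1, 39.9 and 42.8 FPKM against 43.7, 35.7, 30.5 and 30.02, with full overlap. Both had a log2 fold change of 0.08.

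Gsr, the reductase that regenerates glutathione, was at 51.8, 75.6, 57.9 and 46.9 FPKM with rFGF4 and 47.9, 42.0, 45.7 and 36.6 with vehicle. The groups overlapped through rFGF4 mouse 5 and vehicle mouse 2, and the log2 fold change was 0.41 (standard error 0.17, limma p = 0.0404, exact permutation p = 0.0571). Selenop, the plasma protein that carries selenium to tissues, was at 309.7, 303, 447 and 294 FPKM against 259, 229.8, 259 and 234. All 4 rFGF4-treated mice lay above all 4 vehicle-treated mice, as in 3.33% of all tested genes in either direction. Its log2 fold change was 0.44 (standard error 0.17, limma p = 0.0291, exact permutation p = 0.0286, the smallest that the design allows, and Benjamini-Hochberg adjusted limma p = 0.918). Abcc4, an exporter of conjugates and other organic anions, was at 23.5, 29.6, 23.0 and 17.1 FPKM against 16.9, 11.0, 18.03 and 19.0, with overlap through rFGF4 mouse 5 and vehicle mice 4 and 5. The log2 fold change was 0.50 (standard error 0.21, limma p = 0.0459, exact permutation p = 0.0857). Selenop no longer reached 0.05 without rFGF4 mouse 3 (log2 fold change 0.30), vehicle mouse 3 (0.41) or vehicle mouse 5 (0.42). Gsr did not without rFGF4 mouse 2 (0.27) or 3 (0.40) or without vehicle mouse 3 (0.40), 4 (0.44) or 5 (0.33). Abcc4 did not without rFGF4 mouse 1 (0.49), 2 (0.38) or 3 (0.50) or without vehicle mouse 2 (0.53), 3 (0.33) or 4 (0.55). With a common median ratio none of the 3 stayed under 0.05, at log2 fold changes of 0.31 for Selenop, 0.28 for Gsr and 0.37 for Abcc4.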

How the data were processed

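Kidney poly(A) RNA of 8 mice was sequenced in paired ends. Per the labels, the submitters' processing notes name Bowtie 0.12.2, HISAT2 2.0, StringTie 1.3.0 and build mm8, without roles. The authors deposited 1 table of FPKM per gene, in which 0.0001 stands in place of 0. The deposited table also holds the authors' own comparison (a fold change or ratio, its log2, a p-value and a q-value), which was not used. Depth is unknown, since the table holds no counts, and precision rests on the spread between mice.

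Groups came from the sample titles. Expression was compared as log2(FPKM + 1), for the genes at 0.5 FPKM or above in 4 or more libraries, with limma 3.58.1 in R 4.3.3 (trend in the prior variance, Benjamini-Hochberg over all tested genes). A fold change is on that scale and understates the change of low genes. The authors used edgeR, which needs counts; their threshold was kept. Single genes also had two-sided exact permutation tests. The procedure was also run on simulated data with independent noise for each gene and planted changes larger than those of the members. That run does not cover shifts shared across a library or changes as small as those of the members. The limma p weighs a group difference against the spread between these mice, moderated over all tested genes. The permutation p sets that difference against those of all equal splits of the mice.

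The members and lists were chosen with earlier results of these data known. Values in every mouse are given for members with a mean of at least 20 FPKM, an unadjusted p under 0.05 or groups that do not overlap, and for list genes with a p under 0.05 with Gclc, Gclm, Gss and Gsr. Gstm6 and other members are named outside this rule, after their values were seen. Nnt is listed under more than 1 identifier and was left out of its list.

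Positions and transcripts came from GENCODE M21 on GRCm38, matched by identifier (99.5% of 55401, and all 33 members), since the table holds no coordinates. Promoter windows came from RefSeq. Alternatives were another pseudocount (0.1), no filter or 1 FPKM, 2 other scalings, array weights, a 2-fold limit, each mouse left out and a block for shared mouse numbers. Leaving out rFGF4 mouse 1 and vehicle mouse 5 together was chosen after seeing the data. Mice with a shared number were not paired in the main comparison, and whether the numbers mark a pairing is not settled.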

Additional observations from a re-analysis of the deposited data

Results flagged for a closer look

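In 42 groups of 4 mice (19 members with values for every mouse and summed quantities of the libraries), 5 held a mouse whose gap to the nearest other, as a part of the whole range of its group, was above Dixon's 95% limit. Chance gives about 2.1. For Gpx3 the part was 0.940 for rFGF4 mouse 1, at 1886 FPKM beside 14995 to 17110 in the other 3. The summed FPKM of all 33 members was low in the same mouse (0.883), at 4331 beside 17556 to 19307, which is the Gpx3 difference seen again. Gstk1 was also low there (0.873), at 20.5 FPKM beside 43.6 to 48.6. Gstm2 was low in rFGF4 mouse 3 (0.869), at 15.2 FPKM beside 23.6 to 25.2. The FPKM sum of all genes was low in vehicle mouse 5 (0.840), at 481321 beside 541179 to 552604. No cause was tested.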

How the results depend on the processing

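The median log2 fold change of the members, 0.07 as reported, was -0.05 with median-ratio scaling, 0.16 with equal FPKM sums and 0.14 with array weights, and -0.01 to 0.11 with 1 mouse left out, below 0 without rFGF4 mouse 2 or vehicle mouse 3. Genes at the study's threshold numbered 348 with a pseudocount of 0.1, 490 with array weights and 54 at a 2-fold limit, and 187 to 575 with 1 mouse left out. Members lower at the threshold numbered 1 with median-ratio scaling (Gstp2) and 0 to 1 with 1 mouse left out (Gstp2 without vehicle mouse 2), and members higher 0 to 1 (Gstm6 without vehicle mouse 5). Members at an unadjusted p under 0.05 numbered 1 with equal FPKM sums (Gstp1) and 1 without rFGF4 mouse 1 and vehicle mouse 5 (Gstm6), so Gstp2 and Mgst3 were lost in both, and 0 to 2 with 1 mouse left out. Pathway genes at that p numbered 0 with median-ratio scaling, 7 with array weights, 0 without both mice and 0 to 8 with 1 mouse left out. Of the 231 genes at the threshold 71.4% were higher with rFGF4, of 174 with median-ratio scaling 53.4% and of 321 with equal sums 86.9%. The causes were not tested.

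Of 304 values of named members, 279 stayed on the same side of 0.05, 19 no longer passed it and 6 newly did. The sign differed in 40, for 13 members. A change of scaling turned it in Gpx4, Gsta4, Gstm1, Gstm5, Gstt1 and Gstt2, each of which also turned in other alternatives.

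Mouse numbers 2, 3 and 5 occur in both groups, and deviations of mice with the same number correlated at -0.23, -0.16 and -0.39 across genes. Mice with different numbers correlated at -0.56 to 0.57, so these values cannot decide whether a shared number marks a pairing. With them as a replicate block, to which rFGF4 mouse 1 and vehicle mouse 4 add nothing, 1 member was lower at the threshold and 1 reached an unadjusted p under 0.05 (Gstm2 in both, at -0.62), Gclc also reached that p (0.61 on the log2 scale), and 263 genes passed in all.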
